A study of Mus musculus with 16 samples.

Results

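Podocytes are the epithelial cells that cover the capillaries of the kidney glomerulus, and 8 of their characteristic genes were followed here: Nphs1, Podxl, Wt1, Synpo, Magi2, Ptpro, Cdkn1c and Plce1. They were taken by symbol from a table of 23935 symbols measured by RNA sequencing, and each of the 8 had 1 entry in it. The libraries came from whole kidneys of wild-type (WT) mice, 16 in all. The 4 groups, of 4 libraries each, were mice given PBS, mice given cisplatin, and mice given NMN or NR ahead of cisplatin. Cisplatin, a platinum chemotherapy drug, damages DNA and is toxic to kidney tubules. The compounds NMN, nicotinamide mononucleotide, and NR, nicotinamide riboside, both feed the synthesis of the cofactor NAD. Kidneys were harvested on day 3 after cisplatin. The sources used here give no strain, sex, age or dose. They do not say that the 4 libraries of a group are separate animals, and a p-value therefore reflects only sample-to-sample spread, part of which may be technical.

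Podocytes send out interlocking foot processes, and the gaps between them are bridged by the slit diaphragm, a cell junction through which blood is filtered into urine. Nphs1 encodes nephrin, the transmembrane protein that spans this junction. Magi2 encodes a scaffold protein that binds nephrin on its inner side, and Plce1 encodes phospholipase C epsilon, a signalling enzyme whose loss causes nephrotic syndrome in people. Podxl encodes podocalyxin, a negatively charged sialomucin of the apical foot process membrane that endothelial cells make as well, and Ptpro encodes a receptor tyrosine phosphatase of the same membrane. Synpo encodes synaptopodin, which organises actin in the foot processes. Wt1 encodes a zinc finger transcription factor needed to form and maintain podocytes, and Cdkn1c encodes p57, a cyclin-dependent kinase inhibitor that podocytes gain when they stop dividing. Of the 8, Nphs1 and Magi2 belong most closely to the slit diaphragm, and the set as a whole marks podocytes rather than that junction alone.

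Because WT1 is itself among the 8, the upstream sequences were searched for the G-rich core of its published binding site, GTGGGNG, on both strands; this core is shared with the EGR factors. RefSeq promoter windows (GRCm38.p6, 250 bases before to 50 after a start site) matched 4 of the 8 genes by symbol, with 5 windows in all. The core was found once each in the windows of Nphs1, Ptpro and Magi2, and 31.6% of all 32851 windows in the table hold it. It was not found in the Plce1 window or in a second Magi2 window. The bases below run 5′ to 3′ on the plus strand, which is the strand of all 3 genes, with the core in capitals. It begins 35 bases before the start site in Ptpro and 225 bases before the listed start in Nphs1. In Nphs1, GENCODE vM21 places it in an exon of the transcript Nphs1-201, so that only 27 bases are shown. In Magi2 the core lies on the minus strand and reads as its reverse complement.
Ptpro, chr6:137252049-137252298: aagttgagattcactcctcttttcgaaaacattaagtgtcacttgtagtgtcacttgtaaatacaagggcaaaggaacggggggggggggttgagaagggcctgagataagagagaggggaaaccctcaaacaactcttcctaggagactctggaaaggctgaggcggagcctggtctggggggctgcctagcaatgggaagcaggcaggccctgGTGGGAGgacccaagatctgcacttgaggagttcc
Nphs1, chr7:30459823-30459849: gtacctgtgaGTGGGTGagagggaggt
Magi2, chr5:19226796-19227035: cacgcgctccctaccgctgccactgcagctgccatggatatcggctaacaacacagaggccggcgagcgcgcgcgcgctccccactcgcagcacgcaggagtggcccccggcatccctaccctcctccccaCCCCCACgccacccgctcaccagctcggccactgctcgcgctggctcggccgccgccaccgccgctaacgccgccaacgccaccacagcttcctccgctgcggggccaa
These matches describe letters in a window and are not evidence of binding. In GENCODE vM21 (GRCm38), Nphs1 lies on chromosome 7 from 30458315 to 30487223 and Cdkn1c on the same chromosome from 143458339 to 143461050. Podxl lies on chromosome 6 from 31519488 to 31563981, Ptpro on chromosome 6 from 137252319 to 137463233, and Wt1 on chromosome 2 from 105126529 to 105173616. An antisense gene, Nphs1os, overlaps Nphs1 and never exceeded 0.26 TPM in any library; the sources used here do not state whether counting used strand.

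Values are TPM, transcript abundances corrected for gene length and by definition scaled to a fixed total per library, so levels may be compared between genes. The listed entries summed to 860428 to 903678 TPM per library and were not rescaled in the main fit. TPM keeps no read depth: the depth per library is unknown and no counting interval can be given. All 8 genes passed the filter of 1 TPM in at least 4 libraries, Plce1 with exactly 4 (3 PBS libraries and 1 NMN library). Differences were taken from a limma model of log2(TPM + 1) over 12960 genes and called at an adjusted p under 0.05 (Benjamini-Hochberg over all genes); on this scale a difference understates the change of a gene near or below 1 TPM. The median gene shifted by 0.27 with cisplatin against PBS, by -0.23 with NMN and by -0.20 with NR against cisplatin. After median-of-ratios scaling, in which these medians are near 0, the calls over all genes with cisplatin were 3785 higher and 3692 lower in place of 5278 and 2415. Against cisplatin they became 2895 higher and 3033 lower with NMN (1954 and 4405 in TPM) and 2754 higher and 2884 lower with NR (1870 and 4174 in TPM).

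One library stood apart and touches every comparison with cisplatin. Cisplatin library 1 held the highest level of all 8 podocyte genes in its group. It lay inside the PBS range for 6 of them, below it for Podxl (23.94 TPM, against a PBS minimum of 26.15) and above it for Magi2 (3.56 TPM, against a PBS maximum of 3.16). Renin (Ren1), made by the juxtaglomerular cells at the glomerular pole, stood at 61.44 TPM there, against 5.82 to 7.53 TPM in the other 3 cisplatin libraries. In tubular genes the same library resembled its group: 12 proximal tubule markers summed to 376 TPM, against 452 to 482 in the other 3 cisplatin libraries and 8590 to 9820 with PBS. Its 8 injury markers summed to 14300 TPM, against 12300 to 14600 in the other 3 and 651 to 919 with PBS. Endothelial genes were also higher there: 15 of them summed to 227 TPM, against 127 to 139 TPM in the other 3 cisplatin libraries and 208 to 413 TPM with PBS. Library 1 also led its group outside the glomerulus. Macrophage and leukocyte markers summed to 212 TPM there, against 160 to 182 in the other 3. By mean log2(TPM + 1) relative to PBS, the injury markers stood at 5.98, against 5.69 to 5.78. Collecting duct and medulla markers were lower there, at 633 TPM against 703 to 759. Relative to the mean of the other 3 libraries, library 1 was 3.28 times as high for Plvap, 2.01 for Kdr and 1.34 for Ehd3. For the podocyte genes this ratio was 14.9 for Wt1, 8.57 for Ptpro, 5.38 for Podxl and 3.86 for Magi2. It was 3.59 for Nphs1, 3.36 for Cdkn1c, 2.58 for Synpo and 2.57 for Plce1, so the ratio of Plvap lay within their range. Results on cisplatin are therefore given with and without library 1, and no reason for its values was tested. Library 1 was set apart by the values of these same 8 genes and is the highest of its group for each. Leaving it out therefore widens their differences from the other groups by construction, which does not hold for the shares over all genes. The calls, p-values and overlaps of the 8 without library 1 are descriptions and no separate support.

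Podocyte genes were lower with cisplatin than with PBS. With all libraries 6 of the 8 fell, and the 2 that missed the threshold, Magi2 and Cdkn1c, also had negative estimates; 18.6% of all genes tested were called lower. Without cisplatin library 1, which was set apart by these same genes, all 8 fell (19.1% of 12813 genes). The median log2 difference of the 8 was -1.22, and -1.58 without library 1, beside 0.27 and 0.23 over all genes. After median-of-ratios scaling all 8 were called lower with every library kept, beside 3692 of all 12899 genes then tested. In whole kidney RNA, fewer podocytes and less RNA per podocyte cannot be told apart. Markers of other cells moved in the same libraries, and their part in these results was not tested. The 6 red blood cell markers summed to 9.56 to 34.6 TPM with cisplatin, against 1880 to 3820 TPM with PBS (5 of 6 called lower), with cisplatin library 1 at 22.4 TPM. Of the 12 macrophage and leukocyte markers 10 were tested, and 3 were called higher and 2 lower (median 0.05); without cisplatin library 1 it was 2 higher and 3 lower of 9 (median -0.49). Their sum was 160 to 212 TPM with cisplatin and 41.7 to 82.7 TPM with PBS, with Cd68 rising from 3.48 ± 2.10 to 105 ± 11.3 TPM and Csf1r falling from 17.3 ± 4.61 to 5.15 ± 0.884 TPM. The 6 adipose markers summed to 200 to 394 TPM and 25.2 to 119 TPM (5 of 5 tested called higher). As a sign of RNA make-up, 12 ribosomal protein genes summed to 20800 to 22300 TPM with cisplatin and 7230 to 8720 TPM with PBS, and 12 of 12 were called higher; against cisplatin 12 of 12 were called lower with NMN and 12 of 12 with NR. Their part in these results was not tested either.

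**Figure D1:**
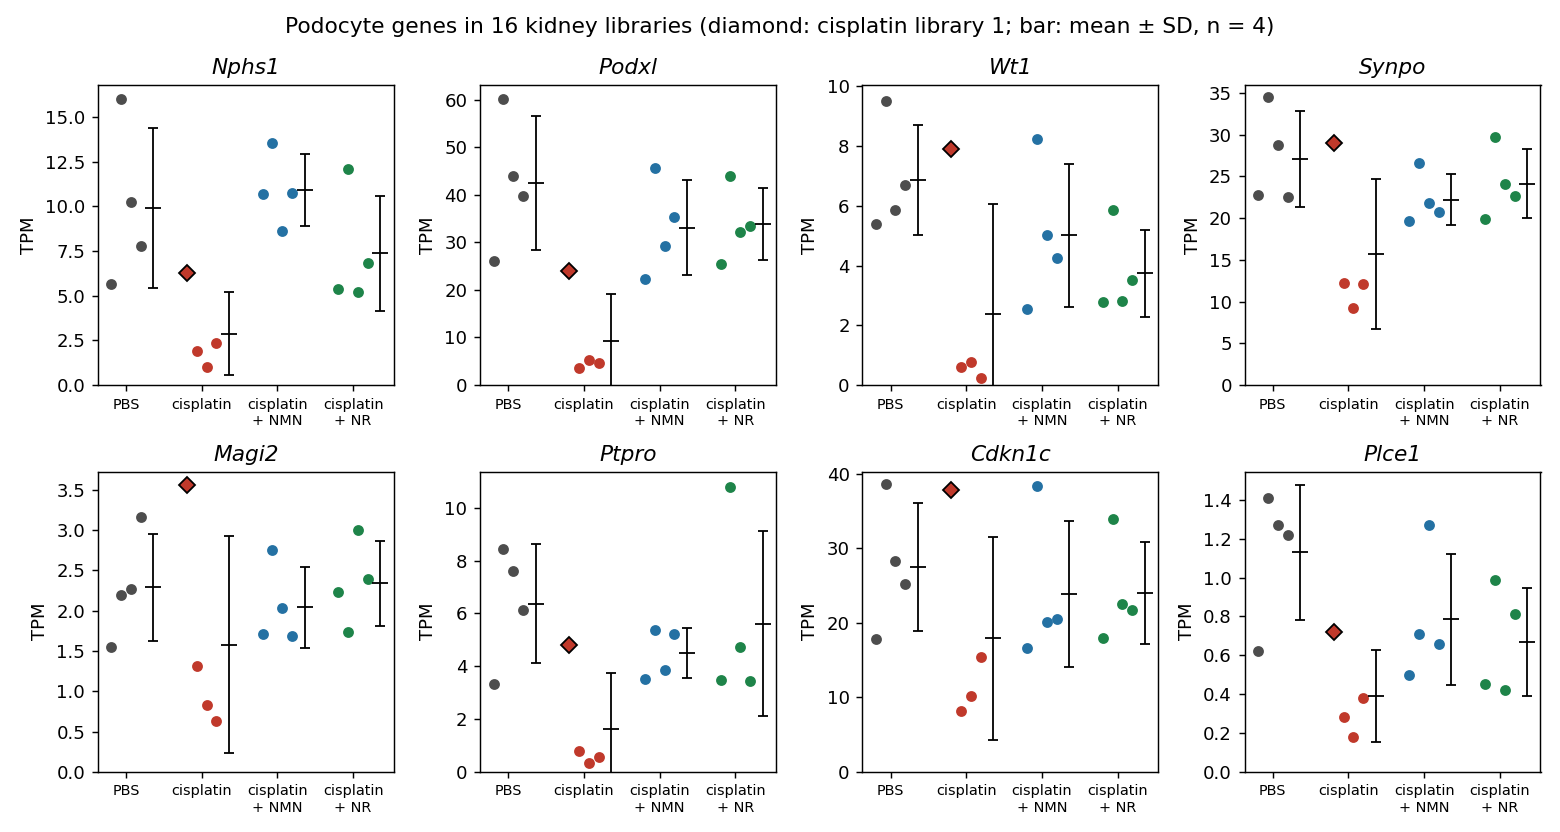
TPM of each podocyte gene (vertical axis, from 0) in the 16 libraries by group; points are libraries 1 to 4 from left to right in each group, the diamond marks cisplatin library 1, and the bar is the mean ± SD (n = 4), cut off at 0 where it would go below. Cisplatin libraries 2 to 4 lie below every PBS library for all 8 genes, while cisplatin library 1 lies among the PBS libraries for most.

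At the slit diaphragm, Nphs1 measured 5.64, 16.01, 10.25 and 7.79 TPM in PBS libraries 1 to 4 and 6.25, 1.88, 1.01 and 2.33 TPM in cisplatin libraries 1 to 4. Cisplatin libraries 2 to 4 lay below every PBS library, and library 1 lay above PBS library 1. Nphs1 fell by 1.58 on the log2 scale (SE 0.35, limma adjusted p = 0.00079), and by 1.94 without library 1. Magi2 measured 1.55, 2.20, 2.27 and 3.16 TPM with PBS and 3.56, 1.31, 0.83 and 0.63 TPM with cisplatin. The 2 groups overlapped only through library 1, the highest of all 8 values. Its difference of -0.46 was not called (limma adjusted p = 0.148, 95% interval -1.01 to 0.10), and without library 1 Magi2 fell by 0.77 (limma adjusted p = 0.00501). It was also called lower after median-of-ratios scaling (-0.65) and quantile normalization (-0.57), and with the mitochondrially encoded genes removed (-0.68). Plce1 was the scarcest of the 8, at 0.62, 1.41, 1.27 and 1.22 TPM with PBS and 0.72, 0.28, 0.18 and 0.38 TPM with cisplatin, and it fell by 0.61 (limma adjusted p = 0.0153). It did not reach 1 TPM in any cisplatin library, and without PBS library 2, 3 or 4 it no longer passed the filter and was not tested. With a pseudocount of 0.1 in place of 1, the difference was -1.39 for Plce1 and -2.60 for Wt1, both still called.

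On the apical membrane, Podxl measured 26.15, 60.10, 43.87 and 39.81 TPM with PBS and 23.94, 3.51, 5.23 and 4.60 TPM with cisplatin. Podxl was the only one of the 8 whose groups did not overlap with all libraries kept, which held for 15.6% of all genes in this direction; without library 1 none of the 8 overlapped (18.7% of genes). On the log2(TPM + 1) scale Podxl showed the largest difference of the 8 at -2.40 (SE 0.42, limma adjusted p = 0.00011), or -2.95 without library 1. Mean Podxl was 42.5 ± 14.0 TPM with PBS and 4.45 ± 0.87 TPM in cisplatin libraries 2 to 4 (SD, n = 4 and 3), a ratio of 9.55. That ratio was larger for Wt1 (13.0) and Ptpro (11.4). Ptpro measured 3.32, 8.44, 7.60 and 6.11 TPM with PBS and 4.80, 0.77, 0.35 and 0.56 TPM with cisplatin. Libraries 2 to 4 were again below all PBS values, and library 1 was above PBS library 1. Ptpro fell by 1.71 (limma adjusted p = 0.00144), and its PBS mean was 11.4 times the mean of cisplatin libraries 2 to 4.

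Synpo, on the actin side, measured 22.72, 34.55, 28.77 and 22.49 TPM with PBS and 28.97, 12.25, 9.25 and 12.15 TPM with cisplatin. Library 1 was higher than 3 of the 4 PBS libraries. Synpo fell by 0.87 (limma adjusted p = 0.0061) and by 1.19 without library 1, where the PBS mean was 2.42 times that of cisplatin. Synpo and Podxl are both above 1 TPM in every library, and their differences were not tested against each other.

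Among the nuclear proteins, Wt1 measured 5.41, 9.51, 5.87 and 6.71 TPM with PBS and 7.91, 0.59, 0.77 and 0.23 TPM with cisplatin. The 3 low cisplatin libraries stayed under 1 TPM, and library 1 exceeded 3 of the 4 PBS libraries. Wt1 fell by 1.71 (SE 0.46, limma adjusted p = 0.00425), and by 2.35 without library 1, with a PBS mean 13.0 times the mean of libraries 2 to 4. Cdkn1c measured 17.84, 38.57, 28.27 and 25.26 TPM with PBS and 37.80, 8.14, 10.20 and 15.39 TPM with cisplatin. Here library 1 reached nearly the highest PBS value, and the other 3 lay below the lowest. The difference of -0.78 was not called (limma adjusted p = 0.0786), and without library 1 Cdkn1c fell by 1.21 (limma adjusted p = 0.00207). It was also called lower without PBS library 1 (-0.97, limma adjusted p = 0.0452), after median-of-ratios scaling (-1.08) or quantile normalization (-1.10), with the mitochondrially encoded genes removed (-1.04) and with array weights (-1.01).

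**Figure D2:**
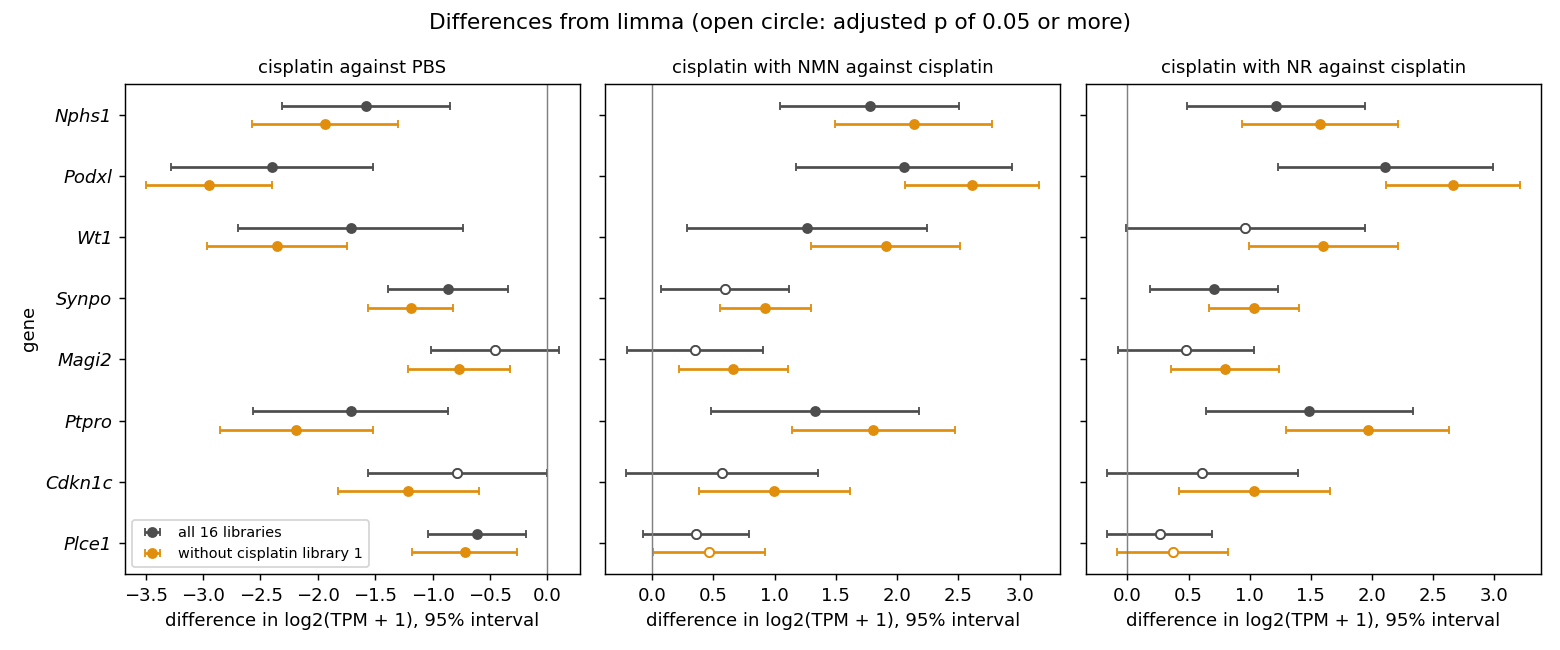
Difference in log2(TPM + 1) with its 95% interval (horizontal axis, limma) for each podocyte gene in the 3 comparisons with the cisplatin group, with all 16 libraries and without cisplatin library 1; filled circles have an adjusted p under 0.05. Every point against PBS lies below 0 and every point against cisplatin above 0, and leaving out library 1 moves each of them away from 0. Library 1 is the highest of its group for all 8 genes, which fixes the direction of that move.

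The order of the levels differed between the groups. With PBS it ran Podxl (42.5 ± 14.0 TPM), Cdkn1c (27.5 ± 8.59), Synpo (27.1 ± 5.74), Nphs1 (9.92 ± 4.47), Wt1 (6.88 ± 1.84), Ptpro (6.37 ± 2.25), Magi2 (2.29 ± 0.662) and Plce1 (1.13 ± 0.349; SD, n = 4). Cdkn1c and Synpo did not differ beyond their spread, nor did Nphs1, Wt1 and Ptpro. In cisplatin libraries 2 to 4 Synpo (11.2 ± 1.7 TPM) and Cdkn1c (11.2 ± 3.74) led, followed by Podxl (4.45 ± 0.87), Nphs1 (1.74 ± 0.671), Magi2 (0.923 ± 0.349), Ptpro (0.56 ± 0.21), Wt1 (0.53 ± 0.275) and Plce1 (0.28 ± 0.1; SD, n = 3). In these 3 libraries Podxl stood below Synpo and Cdkn1c in each, while Synpo and Cdkn1c did not differ beyond their spread, and the values of Magi2 overlapped those of Wt1 and Ptpro. With all 4 cisplatin libraries the means ran Cdkn1c (17.9 ± 13.6 TPM), Synpo (15.7 ± 8.99), Podxl (9.32 ± 9.77), Nphs1 (2.87 ± 2.32), Wt1 (2.38 ± 3.70), Ptpro (1.62 ± 2.13), Magi2 (1.58 ± 1.35) and Plce1 (0.39 ± 0.235; SD, n = 4). The place of Wt1 and Ptpro relative to Magi2 thus rests on library 1.

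The levels were also taken as shares of the summed TPM of the 8 genes, in which an equal fold loss of all 8 would cancel. The sum itself was 83.2, 170.8, 128.2 and 112.6 TPM with PBS and 114.0, 28.7, 27.8 and 36.3 TPM with cisplatin. Podxl made up 31.4% to 35.4% of it in the PBS libraries and 21.0%, 12.2%, 18.8% and 12.7% in cisplatin libraries 1 to 4. Cdkn1c made up 21.4% to 22.6% with PBS and 33.2%, 28.3%, 36.7% and 42.4% with cisplatin, and Synpo 20.0% to 27.3% with PBS and 25.4%, 42.6%, 33.2% and 33.5% with cisplatin. Cisplatin library 1, whose sum was inside the PBS range, was outside the PBS range in its shares of 6 of the 8: below it for Podxl, Nphs1 and Plce1 and above it for Cdkn1c, Wt1 and Magi2. With NMN, Podxl made up 28.7% to 35.6% and Cdkn1c 20.7% to 27.2% of the sum. With NR the ranges were 31.6% to 35.3% and 22.9% to 24.4%, the latter just above that with PBS. Wt1 made up 3.0% to 4.2% with NR, below its range of 4.6% to 6.5% with PBS. Nphs1 made up 9.4% to 13.8% with NMN and 6.8% to 9.4% with PBS. These shares are descriptions with no test, and they are of TPM, not of cells.

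**Figure D3:**
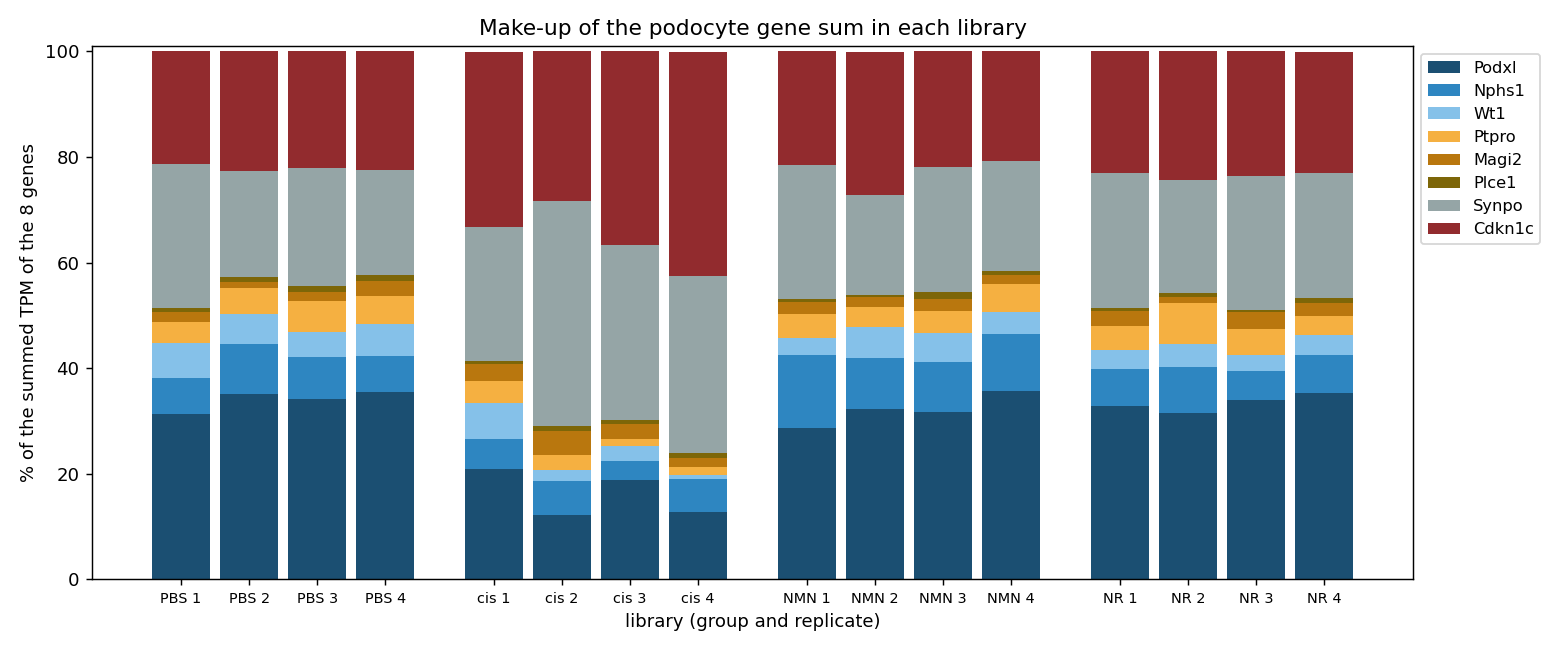
Share of each podocyte gene in the summed TPM of the 8 genes (vertical axis, percent) in each of the 16 libraries, cis being cisplatin alone, and NMN and NR the groups given that precursor before it. The Podxl share is smaller and the Cdkn1c share larger in all 4 cisplatin libraries than in any PBS library, and the Podxl shares of the NMN and NR libraries overlap those of PBS. The Wt1 share is smaller in every NR library than in any PBS library.

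NMN libraries held higher levels of 4 of the 8 genes than cisplatin alone, where 15.1% of all genes tested were called higher, and of 7 without cisplatin library 1 (15.3%). Podxl, the apical sialomucin, measured 22.21, 45.63, 29.15 and 35.35 TPM with NMN and rose by 2.06 (SE 0.42, limma adjusted p = 0.00066). NMN library 1 was below cisplatin library 1, so here too the groups overlapped. Nphs1 measured 10.70, 13.56, 8.63 and 10.76 TPM with NMN, above every cisplatin library, and rose by 1.78 (SE 0.35, limma adjusted p = 0.00041). It was the single gene of the 8 without overlap when all libraries were kept, as for 13.4% of all genes in this direction; without library 1 none of the 8 overlapped (16.5%).

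Ptpro, the foot process phosphatase, measured 3.50, 5.38, 3.86 and 5.21 TPM with NMN and rose by 1.33 (limma adjusted p = 0.0111). Wt1 measured 2.53, 8.24, 5.01 and 4.27 TPM with NMN and rose by 1.27 (limma adjusted p = 0.0316), a call that was lost when any of cisplatin libraries 2, 3 and 4 or NMN libraries 2, 3 and 4 was left out (adjusted p from 0.0564 to 0.114). It was also lost in a fit of only the groups compared (adjusted p = 0.09) and with no filter on low values (adjusted p = 0.0516). Leaving out cisplatin library 1 instead gave 1.91 for Wt1.

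The other 4 genes were not called with NMN. Synpo, at 19.66, 26.57, 21.77 and 20.73 TPM, differed by 0.60 (limma adjusted p = 0.0539), and by 0.93 without cisplatin library 1 (limma adjusted p = 0.00039). Synpo was also called higher after median-of-ratios scaling (0.83) or quantile normalization (0.83), with the mitochondrially encoded genes removed (0.79), with array weights (0.68) and with a minimum of 5 TPM (0.60). Cdkn1c stood at 16.63, 38.35, 20.17 and 20.55 TPM, with a difference of 0.57 (limma adjusted p = 0.214, 95% interval -0.21 to 1.35). Magi2 stood at 1.71, 2.75, 2.03 and 1.68 TPM and Plce1 at 0.50, 0.71, 1.27 and 0.66 TPM, with differences of 0.35 and 0.36 (limma adjusted p = 0.288 and 0.157). Without library 1 Cdkn1c and Magi2 were called higher, by 1.00 and 0.66 (limma adjusted p = 0.0105 and 0.0166), and Plce1 was not (limma adjusted p = 0.091).

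NR libraries also held higher levels of 4 of the 8 genes than cisplatin alone, where 14.4% of all genes were called higher, and of 7 without cisplatin library 1 (14.7%). Podxl measured 25.52, 43.90, 32.13 and 33.54 TPM with NR, above every cisplatin library, and rose by 2.11 (SE 0.42, limma adjusted p = 0.00061). It was the single gene of the 8 without overlap, as for 12.7% of all genes in this direction; without library 1 none of the 8 overlapped (16.1%). Nphs1 measured 5.36, 12.07, 5.21 and 6.84 TPM with NR and rose by 1.21 (limma adjusted p = 0.00835). The first and the third of these lie below the value of cisplatin library 1.

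Ptpro measured 3.47, 10.80, 4.74 and 3.43 TPM with NR and rose by 1.49 (limma adjusted p = 0.00592). Synpo measured 19.91, 29.75, 24.05 and 22.60 TPM with NR and rose by 0.71 (limma adjusted p = 0.0266). The Synpo call was lost when cisplatin library 2, 3 or 4 or NR library 2 was left out (adjusted p from 0.068 to 0.0976) and in a fit of only the groups compared (adjusted p = 0.0648). Leaving out cisplatin library 1 instead gave 1.03.

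Among the genes not called with NR, Wt1 stood at 2.78, 5.85, 2.82 and 3.52 TPM, with a difference of 0.96 (limma adjusted p = 0.0989, 95% interval -0.01 to 1.94) that was 1.60 without cisplatin library 1 (limma adjusted p = 0.00031). Magi2 stood at 2.23, 1.73, 3.00 and 2.39 TPM (0.48, limma adjusted p = 0.145) and Cdkn1c at 17.91, 33.94, 22.51 and 21.77 TPM (0.61, limma adjusted p = 0.19). Plce1 stood at 0.45, 0.99, 0.42 and 0.81 TPM (0.26, limma adjusted p = 0.311). Without library 1 Wt1, Magi2 and Cdkn1c were called higher and Plce1 was not (limma adjusted p = 0.183). Array weights, a pseudocount of 0.1 and median-of-ratios scaling also brought Wt1 under the threshold, and median-of-ratios scaling brought Magi2 under it. Both precursor comparisons use the same 4 cisplatin libraries, so their estimates share that error.

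Set against PBS, the precursor libraries overlapped with PBS for all 8 genes. Over all genes 1.46% lay wholly below and 8.77% wholly above PBS with NMN, and 2.99% and 11.8% with NR. The limma fit called 0 of 8 with NMN and 0 of 8 with NR. None had an unadjusted p under 0.05 (lowest p 0.226 with NMN and 0.103 with NR, both for Plce1), while 2127 of 12960 genes did with NMN and 2869 of 12960 with NR. Over all genes, 0.116% were called lower and 5.89% higher with NMN, and 1.21% lower and 8.79% higher with NR. The estimate farthest below PBS was that of Wt1 with NR, -0.75 with a 95% interval of -1.73 to 0.23, and with NMN it was -0.45 (-1.43 to 0.53). Cisplatin library 1 enters these intervals through the shared spread: without it the Wt1 difference with NR was -0.75 (-1.31 to -0.18, limma unadjusted p = 0.0124, adjusted p = 0.0908), an interval that leaves out 0. Podxl differed from PBS by -0.34 (-1.22 to 0.54) with NMN and by -0.29 (-1.17 to 0.59) with NR. Nphs1 differed by 0.20 (-0.53 to 0.93) with NMN and by -0.37 (-1.10 to 0.36) with NR. With all libraries these intervals hold 0 and also hold differences of more than 0.5 in either direction for some genes, so equality with PBS is not shown. The median difference of the 8 from PBS was -0.26 with NMN and -0.26 with NR, beside 0.04 and 0.06 over all genes. Only Nphs1 with NMN and Magi2 with NR had estimates above 0. After quantile normalization Plce1 was called lower with NR (-0.58, limma adjusted p = 0.0352).

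NMN and NR were compared directly, and limma called 0 of the 8 genes, with 0 of 8 at an unadjusted p under 0.05. Over all 12960 genes 0% were called, and 370 had an unadjusted p under 0.05. The 2 groups overlapped for each of the 8, while 0.64% of all genes lay wholly lower and 0.995% wholly higher with NR. The widest estimate was that of Nphs1, -0.56 with NR against NMN (95% interval -1.29 to 0.17), with means of 7.37 ± 3.22 TPM with NR and 10.9 ± 2.02 TPM with NMN (SD, n = 4). For Podxl it was 0.05 (-0.83 to 0.93), for Wt1 -0.30 (-1.28 to 0.68), for Ptpro 0.16 (-0.69 to 1.01) and for Cdkn1c 0.04 (-0.74 to 0.82). For Synpo it was 0.11 (-0.41 to 0.63), for Magi2 0.13 (-0.42 to 0.69) and for Plce1 -0.10 (-0.53 to 0.33). The intervals are on the log2(TPM + 1) scale, and those of Nphs1, Wt1 and Ptpro reach 1 or -1; equality of the 2 groups is not shown for any of the 8.

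Inside the groups the 8 genes also moved together from library to library. PBS library 2 was highest and PBS library 1 lowest in its group for 7 of the 8. This order in PBS is not particular to podocyte genes. By mean log2(TPM + 1), PBS library 1 was lowest in every other gene list counted here except distal tubule and thick limb markers. The injury markers stood at -0.33 in PBS library 1 and 0.39 in PBS library 2, relative to the PBS mean. How many of all genes share the order was not counted. NMN library 2 was highest for 7 and NMN library 1 lowest for 6, and NR library 2 was highest for 7 and NR library 1 lowest for 4. As deviations from the group means of log2(TPM + 1), the 28 pairs of the 8 genes had Pearson r from 0.39 to 0.94 over 16 libraries (median 0.8), with Wt1 and Podxl at 0.94. Without cisplatin library 1 the range was -0.07 to 0.89 (median 0.6), and the Magi2 pairs were the lowest, at -0.07 with Nphs1 and 0.08 with Synpo. The points share libraries and their scaling, so these are descriptions. The summed red blood cell markers were ordered alike at the ends: in PBS they were lowest in library 1 and highest in library 2 (1880 and 3820 TPM), and likewise with NMN (1360 and 2880 TPM) and NR (1270 and 2600 TPM); their part in this pattern was not tested.

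Among the 5 tested genes whose deviations followed the mean of the 8 most closely were Sema3g (r = 0.947), which encodes a semaphorin of podocytes, Nt5dc2 (0.946), Ccbe1 (0.938) and Pgam2 (0.93), over 16 libraries. Without cisplatin library 1 the same r were 0.922, 0.822, 0.823 and 0.8, and the closest gene was then Mpeg1, a macrophage gene (0.974). Ccbe1 did not share the difference between the groups: it stood at 1.09 ± 0.292 TPM with PBS and 1.13 ± 0.243 TPM in cisplatin libraries 2 to 4, with 3.48 TPM in library 1. The genes closest to the 8 inside the groups are thus not limited to podocyte genes.

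Other gene lists were counted in the same comparison, where 18.6% of all genes were called lower and 40.7% higher; no test compares the lists with each other. Of 7 tested podocyte transcription factors 5 fell and 1 rose (median -0.96, beside 0.27 over all genes), among them Tcf21 (17.8 ± 6.03 to 1.27 ± 1.6 TPM, -3.20), Foxc2 (-1.66) and Dach1 (-1.01). Of 19 other podocyte-enriched genes 13 fell and 2 rose (median -0.89). Those that fell included the growth factor gene Vegfa (184 ± 35.4 to 49.4 ± 13.4 TPM, -1.90) and Enpep, which encodes aminopeptidase A (-1.53). Plat, the gene of tissue plasminogen activator, rose from 19.7 ± 8.1 to 522 ± 138 TPM (4.71). Vegfa and Enpep are also made by tubule cells, whose markers fell in the same libraries (12 of 12 proximal tubule markers), and the part of those cells in these 2 values was not tested.

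Of 13 tested slit diaphragm partners 6 rose and 3 fell (median 0.46), shares near those over all genes. The adaptor gene Cd2ap rose from 15.4 ± 1.76 to 51.9 ± 5.61 TPM (1.69), the protocadherin gene Fat1 from 4.04 ± 1.02 to 18.7 ± 2.34 TPM (1.98) and the atypical protein kinase C gene Prkci by 1.33. Of 15 actin and foot process genes 9 rose and 3 fell (median 0.61), led by the formin gene Inf2 (3.18 ± 1.51 to 25.9 ± 5.53 TPM, 2.74), Vim (2.40) and Arhgdia (1.32). Of 13 genes of the glomerular basement membrane and its receptors 7 rose and 2 fell (median 0.54), among them the integrin gene Itga3 (3.68), the proteoglycan gene Agrn (2.12) and the tetraspanin gene Cd151 (1.75). Kidney cells other than podocytes also make the named products of these 3 lists, and the part of those cells in these values was not tested. After median-of-ratios scaling the counts were 6 higher and 4 lower, 7 and 4, and 6 and 3 in these 3 lists. Over all 12899 genes then tested, 3785 were higher and 3692 lower.

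Genes of neighbouring cell types in the glomerulus were counted the same way. Of 14 endothelial genes 10 fell and 1 rose (median -1.22), with Plvap at 72.8 ± 21.5 and 10.4 ± 7.56 TPM (-2.84), Ehd3 at 10.4 ± 3.47 and 1.25 ± 0.333 TPM (-2.31) and the VEGF receptor gene Kdr at -1.76. Of 11 mesangial and juxtaglomerular genes 7 fell and 1 rose (median -1.33), with Ren1 at -2.95, the angiotensin receptor gene Agtr1a at -2.12 and the pericyte gene Rgs5 at -1.91 among the falls and Serpine2 (2.97) as the rise. All 7 tested genes of parietal epithelium, the lining of the glomerular capsule, rose (median 1.61), led by Cldn1 (3.97 ± 0.897 to 65.6 ± 9.29 TPM, 3.75), Cd44 (3.29) and Cd9 (1.43). These genes are not limited to that lining, and injured tubules make several of them. Without cisplatin library 1 the counts were 10 lower and 1 higher, 7 and 1, and 0 and 6 (of 6 tested) in these 3 lists. Over all genes 19.1% were then called lower and 37.1% higher.

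**Figure D4:**
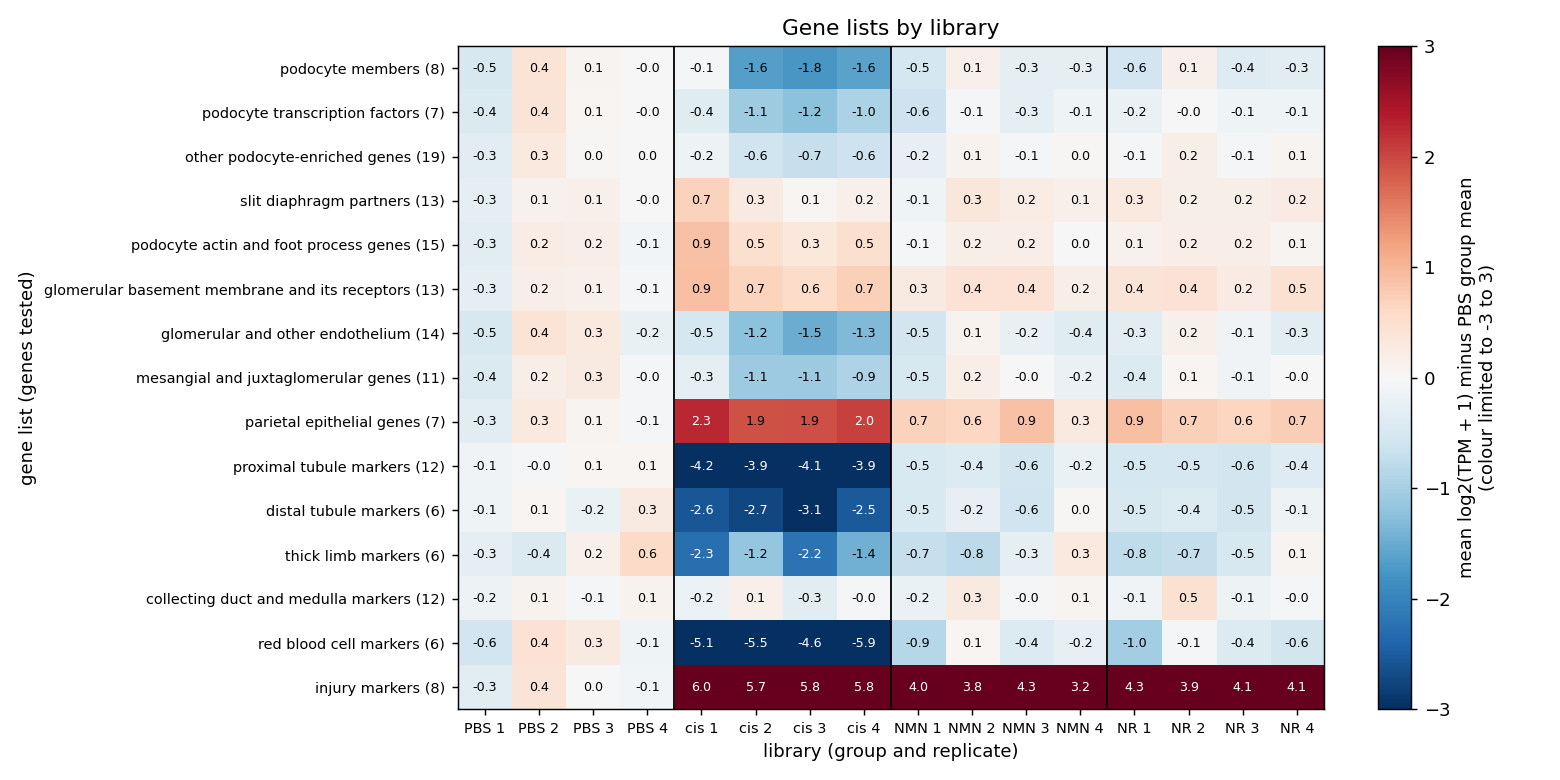
Mean log2(TPM + 1) of each gene list (rows, with the number of genes tested) in each library (columns, cis being cisplatin alone, and NMN and NR the groups given that precursor before it), minus the mean of the PBS group; blue is lower and red higher, with colours limited to -3 to 3 and the values printed. In the row of the 8 podocyte genes cisplatin library 1 is near PBS and libraries 2 to 4 are lower, while the tubule and injury rows are alike in all 4 cisplatin libraries except for the thick limb.

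The same lists were then compared between each precursor group and cisplatin. Over all genes 15.1% were called higher and 34% lower with NMN than with cisplatin alone, and 14.4% higher and 32.2% lower with NR. Against cisplatin, 4 of 7 podocyte transcription factors rose and 1 fell with NMN, and 4 rose and 0 fell with NR (median 0.68 and 0.76), Tcf21 reaching 12.1 ± 4.25 and 12.7 ± 4.01 TPM. Of the 19 other podocyte-enriched genes 9 rose and 3 fell with NMN, and 10 rose and 3 fell with NR. Plat fell to 85.3 ± 51.1 TPM with NMN and 96.2 ± 10.6 TPM with NR. Of the 13 tested slit diaphragm partners 2 rose and 6 fell with NMN, and 3 rose and 6 fell with NR, Cd2ap being at 22.8 ± 2.18 and 27.1 ± 3.86 TPM. Both groups still stood above PBS in the injury list, where 7 of 8 genes were called higher with NMN and 7 with NR. Over all genes 5.89% and 8.79% were called higher than with PBS.

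Of 15 tested relatives of the 8 genes 5 rose and 4 fell (median -0.06), beside 40.7% higher and 18.6% lower over all genes. Among the cyclin-dependent kinase inhibitors of the Cdkn1 family, Cdkn1a (p21) rose from 2.59 ± 1.02 to 783 ± 85.7 TPM with cisplatin (7.82), Cdkn1b (p27) stood at 11.5 ± 1.74 and 10.2 ± 2.03 TPM (-0.17, limma adjusted p = 0.33), and Cdkn1c was lower or not called as given above. Cdkn1b was called lower after median-of-ratios scaling (-0.46, limma adjusted p = 0.00268). Of the Magi2 relatives, Magi1 fell from 3.38 ± 0.312 to 1.47 ± 0.593 TPM (-0.86) and Magi3 rose from 1.86 ± 0.373 to 3.65 ± 0.895 TPM (0.69). Of the genes related to Plce1, Plcb1 fell from 3.03 ± 0.536 to 0.29 ± 0.0616 TPM (-1.64). Egr1, whose product can bind the same G-rich core as WT1, rose from 3.49 ± 1.48 to 70.1 ± 4.63 TPM (4.04).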

How the data were processed

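RNA was sequenced from 16 whole mouse kidney samples, 4 in each of 4 groups taken from the sample titles. The deposited table holds TPM with 2 decimals for 23982 entries, made by the authors. The submitters' processing notes name the tools STAR 2.4.1d, HTSeq 0.6.1, DESeq2 1.10.1 and Trim Galore and the builds mm10 and GRCm38. What each tool did, which annotation and gene lengths were used and whether strand was counted is not given in the sources used here. Because TPM keeps no depth, the sequencing depth is unknown, no counting interval is printed, and count models were not used. TPM by definition also fixes the total of each library, so a loss of abundant transcripts raises the values of others. The listed entries summed to 860428 to 903678 TPM per library, so the part of that total that is listed varied.

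Entries sharing a symbol (94) were summed, leaving 23935 symbols. The 12960 genes that reached 1 TPM in 4 or more of the 16 libraries were fitted as log2(TPM + 1) with limma 3.58.1 (R 4.3.3, statmod 1.5.0), 4 group means, 12 residual degrees of freedom, and empirical Bayes with trend and robust; p-values are two-sided with Benjamini-Hochberg adjustment over all genes. The fit was tested on simulated data. Errors beside TPM means are SD. The 8 genes and 18 gene lists were chosen with earlier results of these data known. Named by rule were the 8 genes, 9 fixed genes, the 3 of each list with the smallest adjusted p in cisplatin against PBS, and the 5 genes whose deviations from the group means followed the 8 most closely; some of these are not reported here. Mpeg1 was named after its values were seen. Positions came from GENCODE vM21 and promoter windows from RefSeq. Each fit was repeated with other filters (5 TPM, none), another pseudocount (0.1), other scalings (quantile, median of ratios, or TPM rescaled after dropping the 13 genes of the mitochondrial genome) and other models (plain empirical Bayes, a replicate block, array weights, the 2 groups alone), and with single libraries left out in turn. Figures were drawn with matplotlib 3.10.9 (Python 3.11.15, numpy 2.4.6, pandas 2.3.3).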

Additional observations from a re-analysis of the deposited data

Results flagged for a closer look

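In groups of 4 libraries, a library was singled out when its gap to the nearest other value exceeded Dixon's 95% limit for the share of the group's range. Of 264 groups (66 genes) 22 did, 10 of them in cisplatin library 1, and chance gives about 5% of groups. Another 4 came from genes named because they followed the 8 podocyte genes from library to library; that choice favours cisplatin library 1, so they are left out of these counts. Values below are TPM with the range of the other 3 libraries. Among the podocyte genes cisplatin library 1 stood at 23.94 for Podxl (3.51 to 5.23), 7.91 for Wt1 (0.23 to 0.77), 28.97 for Synpo (9.25 to 12.25) and 4.80 for Ptpro (0.35 to 0.77). The gaps of Nphs1, Magi2, Cdkn1c and Plce1 in the same library did not pass the limit, although it was the highest of its group for each. Outside the 8 genes it stood at 61.44 for Ren1 (5.82 to 7.53) and 21.66 for Plvap (5.69 to 7.40). The 4 genes chosen for likeness stood at 8.73 for Sema3g (2.70 to 3.26), 8.96 for Nt5dc2 (2.79 to 3.13), 3.48 for Ccbe1 (0.85 to 1.29) and 43.38 for Pgam2 (20.65 to 24.28). Genes that were higher with cisplatin than with PBS were also above the other libraries there: Prkci at 20.82 (14.28 to 15.29), Inf2 at 34.13 (22.42 to 23.66), Egr1 at 77.04 (67.57 to 68.06) and the keratin gene Krt20 at 1005.63 (788.22 to 812.85).

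The other 12 lay in other libraries. With cisplatin, Cdkn1b was low in library 3 at 7.17 (10.89 to 11.55), the globin gene Hbb-bs high in library 3 at 11.10 (1.25 to 2.72), Slc22a8 low in library 2 at 5.24 (6.49 to 6.72) and Slc5a2 low in library 4 at 26.13 (30.75 to 31.52). With NMN, Tcf21 was low in library 1 at 5.74 (13.64 to 14.74), Atp6v1b1 high in library 2 at 80.00 (53.03 to 56.22), and the thick limb genes Egf and Kcnj1 were high in library 4 at 267.88 (94.92 to 123.32) and 59.73 (31.12 to 35.76). With NR, Atp6v1b1 was low in library 4 at 51.39 (61.52 to 63.11). With PBS, Cd151 was low in library 1 at 48.44 (61.68 to 63.95), and Plin1 and Cd14 were high in library 2 at 0.86 (0.00 to 0.08) and 3.62 (0.97 to 1.40).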

How the results depend on the processing

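In the 3 comparisons with the cisplatin group no estimate of the 8 podocyte genes changed sign under any alternative in which it was tested. Elsewhere estimates that were not called did: Cdkn1c, Podxl and Ptpro between NR and NMN, Magi2 with either precursor against PBS, and Nphs1 with NMN against PBS. Against PBS, 6 of 8 were called lower with cisplatin and 5 to 8 when 1 library was left out, the count of 5 coming with Plce1 below the filter. The count called higher against cisplatin was 4 with NMN and 4 with NR and ranged from 3 to 7 for each when 1 library was left out, with 7 for each without cisplatin library 1. Under quantile normalization 1 of the 8 (Plce1) was called lower with NR against PBS. Over all genes, those lower with cisplatin against PBS numbered 3692 after median-of-ratios scaling and 3700 after quantile normalization, in place of 2415. Genes lower with NMN against PBS numbered 15, and 6 without trend and robust, 91 after median-of-ratios scaling, 132 after quantile normalization, 66 without mitochondrially encoded genes, 23 with a minimum of 5 TPM, 32 with array weights and 5 to 45 with 1 library left out; those higher (763) then ranged from 506 to 880. Genes lower with NR against PBS numbered 157, and 480 after median-of-ratios scaling, 515 after quantile normalization, 297 without mitochondrially encoded genes and 56 to 166 with 1 library left out. With only the groups compared, 1 gene was higher with NR than with NMN. Except where removal of a gene or library shortened the list tested, the cause was not tested.

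All groups carry replicate numbers 1 to 4. The sources used here do not say that these numbers pair libraries, and they were not taken as pairs. Of 24 same-numbered pairs 9 had deviations from their group means correlated above 0.1 (range -0.13 to 0.287, median 0.068, beside -0.014 for other pairs). Same-numbered pairs among PBS, NMN and NR had r from 0.048 to 0.287, and those with a cisplatin library from -0.13 to 0.105. As a hint from the data that libraries of the same number may be linked, 13 of 16 libraries correlated best with one of their own number. What links them was not tested. With a replicate block 51 genes were lower with NMN and 283 with NR against PBS, and no call of the 8 podocyte genes changed in any comparison. Depth is unknown, so values near or below 1 TPM, as those of Plce1 throughout and of Wt1 and Ptpro in 3 cisplatin libraries, have an unknown counting error.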
